A study of Mus musculus with 9 samples.

Results

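The 10 genes described here handle retinoic acid (RA) in the cell. They were taken by symbol from a count table of 24505 genes, and all 10 were in it: the retinol transporter gene Stra6, the storage gene Lrat, the genes Rdh10 and Dhrs3 for the reversible step between retinol and retinaldehyde, the synthesis genes Aldh1a1, Aldh1a2 and Aldh1a3, the RA carrier gene Crabp1, and the breakdown genes Cyp26a1 and Cyp26b1. mRNA was sequenced from 3 groups of 3 libraries of mouse testis germ cells, sorted by fluorescence from Uchl1-eGfp mice (C57BL/6 outcrossed with CD-1). EGFP is made there from the promoter of Uchl1, at a high level in spermatogonia and a low level in preleptotene (PL) spermatocytes, so the groups differ in the gate as well as in the cell. The In/B group held EGFP bright intermediate and type B spermatogonia at P17, and both PL groups held EGFP dim spermatocytes at P19. All mice received WIN18,446, an inhibitor of RA synthesis, daily at 100 µg per g from P1, and one injection of RA at P11 (10 µl, 10 µg per µl). In the RA-sufficient mice, from which the In/B and the RA-sufficient PL cells came, WIN18,446 then ended. In the RA-deficient mice it went on every day until the cells were collected. The methods name several males of a litter for the sorted cells used in quantitative PCR. For RNA sequencing they give either 2 or 3 independent preparations and no number of males. The p-values therefore measure the spread between these libraries, which may in part be technical.

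Cells take up retinol from its carrier in blood with the help of STRA6 and store it as retinyl esters made by LRAT. Retinol is oxidized to retinaldehyde by RDH10, a step that DHRS3 reverses, and ALDH1A enzymes, the targets of WIN18,446, oxidize retinaldehyde to RA. CRABP1 binds RA in the cytosol and CYP26 enzymes hydroxylate it for removal, and in the testis both Sertoli cells, the somatic cells that nurse the germ cells, and germ cells carry parts of this pathway.

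Library totals ran from 12612959 to 27042274 counts, at which 3 counts correspond to between 0.111 and 0.238 CPM. Levels are CPM, counts scaled to a common library size after TMM normalization, unless given per kb of exon. The RA-deficient PL libraries were among the deepest but had counts for 14769 to 15327 genes, against 16758 to 18434 in the other libraries, and each had no count for 242 to 359 genes that had 10 or more in both other replicates, against 0 to 44 elsewhere. RA-deficient PL replicate 3 stood apart from the other two libraries of its group, with a chi-square per degree of freedom of 108 and 107 against them, where replicates 1 and 2 gave 19.8 against each other. To a smaller extent replicate 1 stood apart in the other groups. It gave 40.3 and 35.8 in In/B, against 6.15 between replicates 2 and 3, and 42.6 and 59.4 in RA-sufficient PL, against 10.7. Markers of meiotic prophase summed to 1771 to 2870 CPM in In/B, 6791 to 10188 CPM in RA-sufficient PL and 8981 to 11393 CPM in RA-deficient PL libraries. Markers of differentiating spermatogonia summed to 3807 to 5404, 931 to 1252 and 1402 to 3618 CPM in the same order, with the 1402 CPM in RA-deficient PL replicate 3. This list includes Uchl1, whose promoter drives the EGFP of the gates, and Kit and Stra8. Markers of Sertoli cells were present in all 9 libraries. Each of the 18 genes had counts in every group, but Fshr was at 0 in RA-deficient PL replicates 1 and 2. The 18 markers are given here as sums. They summed to 233 to 757 CPM in In/B, to 5541 to 7660 CPM in RA-sufficient PL and to 669 to 1074 CPM in RA-deficient PL libraries.

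Of the 10 genes, 7 rose and 2 fell from In/B to RA-sufficient PL cells, in a comparison in which 45.4% of all genes tested were called, 26.1% as higher and 19.3% as lower. A gene was called with a fold change above 2 (log2 above 1 in size) and an adjusted p below 0.05 (edgeR's quasi-likelihood test, adjusted by Benjamini and Hochberg's method over all genes tested). From In/B to RA-deficient PL cells 3 of the 10 rose and 1 fell, where 23.2% of all genes were called, 11.4% as higher and 11.8% as lower. Between the PL groups 4 of the 10 were lower and 0 higher in RA-deficient cells, where 15.5% of all genes were called, 11% as lower and 4.47% as higher. All 10 passed the filter on low counts, which asks for a level reached in 3 libraries, in every comparison. From In/B to RA-sufficient PL cells Cyp26a1 passed through the RA-sufficient PL libraries alone, so that its call could only be as higher. Between the PL groups Lrat, Dhrs3, Aldh1a3 and Cyp26a1 were at 0 in an RA-deficient PL library. Their passing there rested in part on the RA-sufficient PL libraries. The median log2 fold change of the 10 genes was 2.31, 1.21 and -1.83 in the 3 comparisons, beside 0.04, 0.00 and -0.09 over all genes tested. The libraries of the compared groups did not overlap in CPM for 9, 5 and 6 of the 10 genes, beside 71.5%, 54.6% and 47.4% of all genes tested. These are bulk libraries, in which a lower share of cells of a type and less RNA per cell cannot be told apart.

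**Figure D1:**
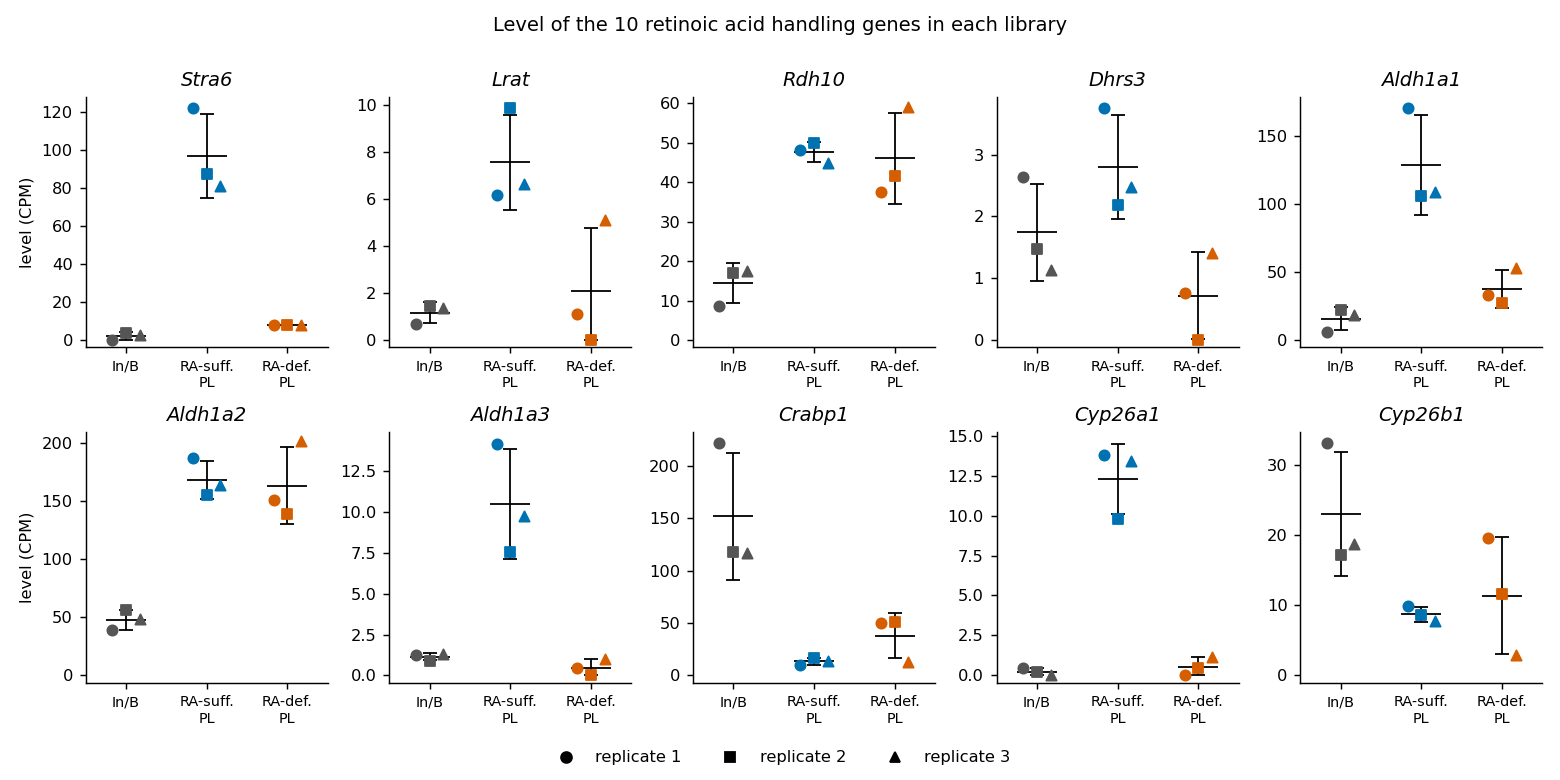
Level of each of the 10 genes in CPM (linear axis) in the 9 libraries, by group. Points are libraries, with a shape for each replicate number, the horizontal line is the group mean and the bar is the SD (n = 3), ended at 0 where it would pass it. Stra6, Aldh1a1, Aldh1a3 and Cyp26a1 stand highest in all 3 RA-sufficient PL libraries, Aldh1a2 and Rdh10 stand high in both PL groups, and Crabp1 stands highest in In/B.

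Stra6 (chr9:57911595-58001803, plus strand; mm9, as are all positions of the genes here) encodes the membrane receptor that brings retinol into cells. It was at 0.0559, 3.70 and 2.60 CPM in In/B replicates 1 to 3, at 122, 87.2 and 81.3 CPM in the RA-sufficient PL libraries and at 7.68, 7.73 and 7.74 CPM in the RA-deficient PL libraries. The 3 groups did not overlap, with the RA-deficient PL libraries close to each other and nearer to In/B. It rose 46.1-fold from In/B to RA-sufficient PL cells (log2 5.53 ± 0.72 SE, adjusted p = 0.000224), and was 12.7-fold lower in RA-deficient than in RA-sufficient PL cells (log2 -3.66 ± 0.24, adjusted p = 0.00079). The first of these ran from log2 4.98 without In/B replicate 1 (adjusted p = 3.6e-05) to log2 6.22 without In/B replicate 2 (adjusted p = 0.000572). The second was called under every alternative run. From In/B to RA-deficient PL cells the log2 difference was 2.04 ± 0.97 (adjusted p = 0.14) and was not called. It was called without In/B replicate 1, the library with the lowest level of Stra6 (log2 1.46, adjusted p = 0.0419).

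Lrat (chr3:82696501-82707895, minus strand) encodes the acyltransferase that esterifies retinol for storage. Its levels were 0.671, 1.47 and 1.36 CPM in In/B, 6.18, 9.88 and 6.66 CPM in RA-sufficient PL and 1.12, 0 and 5.12 CPM in RA-deficient PL libraries. All 3 RA-sufficient PL libraries lay above the other 6, while the RA-deficient PL libraries were spread over the In/B range and on both sides of it. Lrat rose 6.69-fold to RA-sufficient PL cells (log2 2.74 ± 0.41, adjusted p = 0.000456), a call lost with all 9 libraries in a single fit (log2 2.70, adjusted p = 0.0816). Neither comparison with the RA-deficient PL group was called, at log2 0.99 ± 1.43 against In/B (adjusted p = 0.637) and -1.87 ± 1.29 against RA-sufficient PL cells (adjusted p = 0.33). Without RA-deficient PL replicate 3 these were -0.88 (adjusted p = 0.651) and -3.74 (adjusted p = 0.0344), the latter called as lower. The count of 0 in RA-deficient PL replicate 2 allows a level of up to 0.111 CPM, counting error alone.

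Rdh10 (chr1:16095855-16123815, plus strand) encodes the dehydrogenase of the first, rate-limiting oxidation of retinol. It was at 8.55, 17 and 17.6 CPM in In/B, at 48.1, 49.9 and 44.9 CPM in RA-sufficient PL and at 37.5, 41.6 and 59.2 CPM in RA-deficient PL libraries. All 6 PL libraries lay above all In/B libraries, and the PL groups overlapped. Rdh10 rose 3.44-fold to RA-sufficient PL cells (log2 1.78 ± 0.27, adjusted p = 0.000478) and 3.60-fold to RA-deficient PL cells (log2 1.85 ± 0.32, adjusted p = 0.00316). These comparisons share the In/B libraries. Between the PL groups the log2 difference was -0.05, with a 95% interval from -0.55 to 0.44 (adjusted p = 0.872).

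Dhrs3 (chr4:144482730-144518112, plus strand), whose product reduces retinaldehyde back to retinol, was low throughout. Its levels were 2.63, 1.47 and 1.13 CPM in In/B, 3.75, 2.18 and 2.47 CPM in RA-sufficient PL and 0.760, 0 and 1.40 CPM in RA-deficient PL libraries. The RA-deficient PL libraries lay below all RA-sufficient PL libraries, and each PL group overlapped with In/B. It was the single gene of the 10 called in none of the comparisons, with log2 differences of 0.73 ± 0.46 (adjusted p = 0.191), -1.11 ± 1.30 (adjusted p = 0.555) and -1.97 ± 1.27 between the PL groups (adjusted p = 0.298). The 95% interval of the last ran from -4.94 to 1.00, so that a large difference was not detectable at this spread.

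Aldh1a1 (chr19:20676451-20717952, plus strand) encodes an RA-making dehydrogenase known in Sertoli cells. It stood at 6.21, 22.4 and 18.5 CPM in In/B, at 171, 106 and 109 CPM in RA-sufficient PL and at 32.8, 27.1 and 53.3 CPM in RA-deficient PL libraries. The groups did not overlap, and the RA-deficient PL libraries lay between the other two groups. The rise from In/B was 8.52-fold to RA-sufficient PL cells (log2 3.09 ± 0.42, adjusted p = 0.000298). It was 2.71-fold to RA-deficient PL cells (log2 1.44 ± 0.46, adjusted p = 0.0415), a call lost when any 1 of the 6 libraries was left out (log2 1.06 to 1.74, adjusted p from 0.0537 to 0.0878) and when counts were scaled by library size alone (log2 1.12, adjusted p = 0.0841). RA-deficient PL cells had 3.45-fold less than RA-sufficient PL cells (log2 -1.79 ± 0.32, adjusted p = 0.00918), called under every alternative run. A near copy, Aldh1a7, lies on the same chromosome (chr19:20767443-20802052, minus strand), and reads of the pair could have been split or shared in counting.

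Aldh1a2 (chr9:71063596-71144050, plus strand) encodes the RA-making enzyme that meiotic and later germ cells are known to carry. It was at 39.2, 56.2 and 48.4 CPM in In/B, at 187, 155 and 164 CPM in RA-sufficient PL and at 150.4, 139 and 201 CPM in RA-deficient PL libraries. Both PL groups lay above In/B without overlap and overlapped with each other. The rise was 3.65-fold to RA-sufficient PL cells (log2 1.87 ± 0.15, adjusted p = 2.63e-05) and 3.83-fold to RA-deficient PL cells (log2 1.94 ± 0.19, adjusted p = 0.000253), and both were called under every alternative run. Between the PL groups the log2 difference was -0.05, with a 95% interval from -0.45 to 0.35 (adjusted p = 0.851).

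Aldh1a3 (chr7:73535778-73572403, minus strand), the third gene for an RA-making dehydrogenase, was the lowest of the family per kb of exon in every group. It was at 1.23, 0.907 and 1.30 CPM in In/B, at 14.2, 7.58 and 9.79 CPM in RA-sufficient PL and at 0.440, 0 and 1.01 CPM in RA-deficient PL libraries. All RA-sufficient PL libraries lay above the other 6. Aldh1a3 rose 9.54-fold from In/B to RA-sufficient PL cells (log2 3.25 ± 0.37, adjusted p = 0.000116). It was lower in RA-deficient than in RA-sufficient PL cells (log2 -4.46 ± 1.10, adjusted p = 0.0268). This call was lost without any 1 of the RA-sufficient PL libraries (adjusted p = 0.098, 0.0703 and 0.0789 without replicates 1, 2 and 3) or without RA-deficient PL replicate 1 (adjusted p = 0.0721). It held, at log2 -3.84 and -5.54, without RA-deficient PL replicates 2 and 3. From In/B to RA-deficient PL cells the log2 difference of -1.09 ± 1.32 was not called (adjusted p = 0.572).

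The makeup of the ALDH1A family, compared per kb of exon, also differed between groups. Aldh1a2 gave 69.1 to 84.1% of the summed CPM per kb of the 3 genes in In/B and 77.2 to 82.3% in RA-deficient PL libraries, but 48.9 to 56.7% in RA-sufficient PL libraries. Aldh1a1 gave 14.7 to 30.4%, 17.7 to 22.6% and 41.6 to 49.3% in the same order, so its share was highest in the RA-sufficient PL group without overlap. The summed level of the family was 20.6 to 35.9 CPM per kb in In/B, 121 to 169 CPM per kb in RA-sufficient PL and 74.6 to 115 CPM per kb in RA-deficient PL libraries. Aldh1a3 added at most 1.82% in any library.

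**Figure D2:**
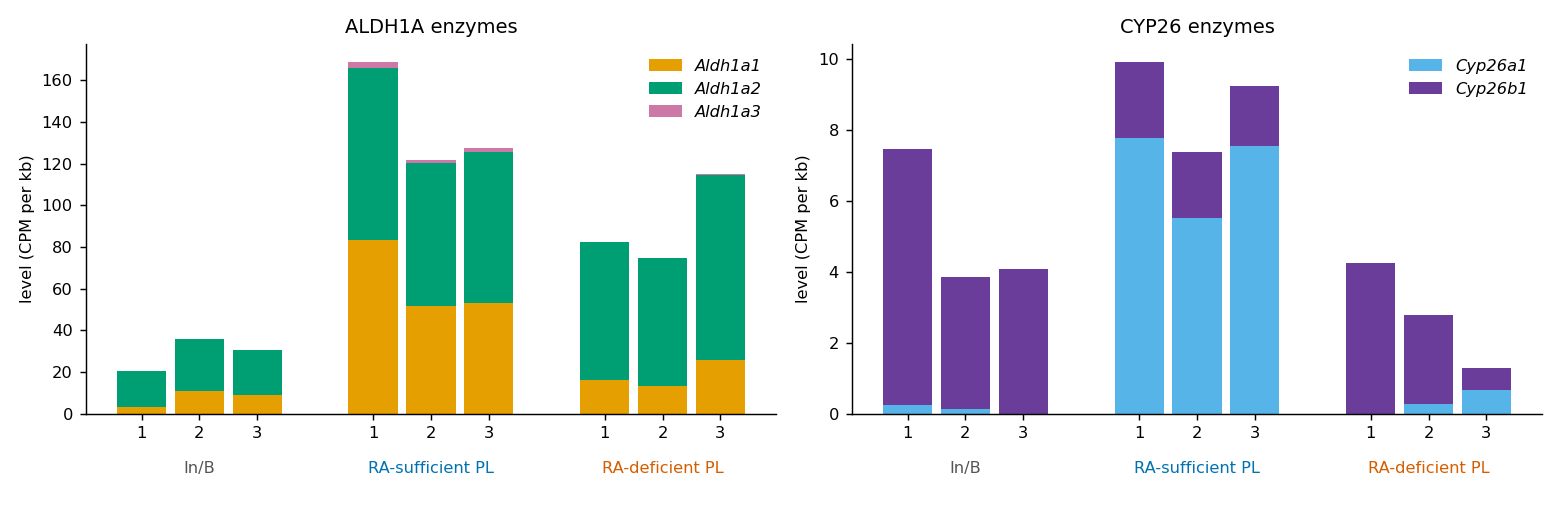
Summed level in CPM per kb of exon in each library (bars, numbered by replicate within group), with the part of each gene in colour, for the ALDH1A enzymes that make RA and the CYP26 enzymes that break it down. Aldh1a2 gives most of the ALDH1A level in the In/B and RA-deficient PL libraries, and Cyp26a1 gives 74.6 to 81.8% of the summed Cyp26a1 and Cyp26b1 level in the RA-sufficient PL libraries.

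Crabp1 (chr9:54612555-54620917, plus strand) encodes the cytosolic RA-binding protein. Its levels were 222, 118 and 117 CPM in In/B, 10.4, 16.4 and 13.5 CPM in RA-sufficient PL and 50.4, 50.6 and 13.0 CPM in RA-deficient PL libraries. In/B lay above all PL libraries, and RA-deficient PL replicate 3 fell within the RA-sufficient PL range while replicates 1 and 2 lay between the groups. The fall was 10.9-fold to RA-sufficient PL cells (log2 -3.45 ± 0.31, adjusted p = 3.74e-05) and 3.58-fold to RA-deficient PL cells (log2 -1.84 ± 0.51, adjusted p = 0.0235). The latter call was lost without In/B replicate 1, the highest library (log2 -1.46, adjusted p = 0.0964). Between the PL groups the log2 difference of 1.50 ± 0.50 was not called (adjusted p = 0.0687). It was called with all 9 libraries in a single fit (log2 1.53, adjusted p = 0.0314), by DESeq2 (log2 1.50, adjusted p = 0.00844) and without RA-deficient PL replicate 3 (log2 1.92, adjusted p = 0.000857).

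Cyp26a1 (chr19:37772298-37776018, plus strand) encodes an RA hydroxylase whose gene is known as a direct target of RA receptors. Its promoter is shown because it was the one among the 10 genes with a match to an RA receptor repeat. The window runs from 250 bases before to 50 after the RefSeq start (GRCm38.p6, chr19:37697558-37697857, plus strand), and capitals mark the match, 32 to 17 bases before the start.
Cyp26a1 promoter: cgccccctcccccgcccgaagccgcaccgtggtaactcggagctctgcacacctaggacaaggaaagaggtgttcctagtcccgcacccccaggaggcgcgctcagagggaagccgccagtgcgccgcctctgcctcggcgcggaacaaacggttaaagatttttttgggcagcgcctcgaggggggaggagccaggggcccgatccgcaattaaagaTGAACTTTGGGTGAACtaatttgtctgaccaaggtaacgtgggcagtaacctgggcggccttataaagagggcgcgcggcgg
The match is GTTCANNNNNNGTTCA, read on the minus strand as TGAACTTTGGGTGAAC on the plus strand. The letters searched on both strands were, for direct repeats of the DR5 kind, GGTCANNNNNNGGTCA, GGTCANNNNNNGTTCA, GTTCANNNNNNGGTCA and GTTCANNNNNNGTTCA, and for the DR2 kind GGTCANNNGGTCA, GGTCANNNGTTCA, GTTCANNNGGTCA and GTTCANNNGTTCA. Of 32851 mouse promoters of the same length, 0.247% held a DR5 and 0.399% a DR2 match. The table had 14 promoters for 8 of the 10 genes, Aldh1a3 and Rdh10 being the other two, and 1 of the 8 genes held a match.

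Levels of Cyp26a1 were 0.447, 0.227 and 0 CPM in In/B, 13.8, 9.76 and 13.4 CPM in RA-sufficient PL and 0, 0.475 and 1.18 CPM in RA-deficient PL libraries. The RA-sufficient PL libraries lay above all others, and the other two groups overlapped near 0. The counts of 0 allow levels of up to 0.174 CPM in In/B replicate 3 and 0.112 CPM in RA-deficient PL replicate 1. Cyp26a1 rose 55.1-fold from In/B to RA-sufficient PL cells (log2 5.78 ± 0.65, adjusted p = 0.000113). With counts of 8, 6 and 0 in In/B, it passed the filter on low counts through the RA-sufficient PL libraries alone. A call could thus only be toward a higher level in them, and the fold is set against a group near 0. The rise was log2 6.53 without In/B replicate 1 (adjusted p = 0.000177) and log2 5.25 without In/B replicate 3, the library at 0 (adjusted p = 0.000184). Cyp26a1 was 22.3-fold lower in RA-deficient than in RA-sufficient PL cells (log2 -4.48 ± 1.09, adjusted p = 0.0257). As for Aldh1a3, this call was lost without any 1 RA-sufficient PL library (adjusted p = 0.0865, 0.0708 and 0.0809 without replicates 1, 2 and 3) and without RA-deficient PL replicate 2 (adjusted p = 0.0669). It held without RA-deficient PL replicates 1 (log2 -3.88) and 3 (log2 -5.65). From In/B to RA-deficient PL cells the log2 difference of 1.43 ± 1.70 was not called (adjusted p = 0.561).

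Cyp26b1 (chr6:84521938-84543740, minus strand) encodes the RA hydroxylase known for keeping RA from fetal male germ cells. It was at 33.2, 17.2 and 18.8 CPM in In/B, at 9.86, 8.61 and 7.72 CPM in RA-sufficient PL and at 19.6, 11.6 and 2.89 CPM in RA-deficient PL libraries. In/B lay above RA-sufficient PL without overlap, and the RA-deficient PL libraries spread from below the RA-sufficient PL range into the In/B range. Cyp26b1 fell 2.55-fold to RA-sufficient PL cells (log2 -1.35 ± 0.30, adjusted p = 0.00413), a call lost without In/B replicate 1 (log2 -0.99, adjusted p = 0.0063) and with all 9 libraries in a single fit (log2 -1.39, adjusted p = 0.0615). The log2 difference of RA-deficient PL cells was -0.86 ± 0.61 against In/B (adjusted p = 0.323) and 0.37 ± 0.62 against RA-sufficient PL cells (adjusted p = 0.697). The latter was -0.26 without RA-deficient PL replicate 1 (adjusted p = 0.805). Per kb of exon, Cyp26b1 gave 96.6 to 100.0% of the summed Cyp26a1 and Cyp26b1 level in In/B, 18.2 to 25.4% in RA-sufficient PL and 100.0, 90.4 and 48.5% in RA-deficient PL replicates 1 to 3. The summed level of the pair was 3.86 to 7.46 CPM per kb in In/B, 7.38 to 9.91 in RA-sufficient PL and 1.29 to 4.27 in RA-deficient PL libraries.

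**Figure D3:**
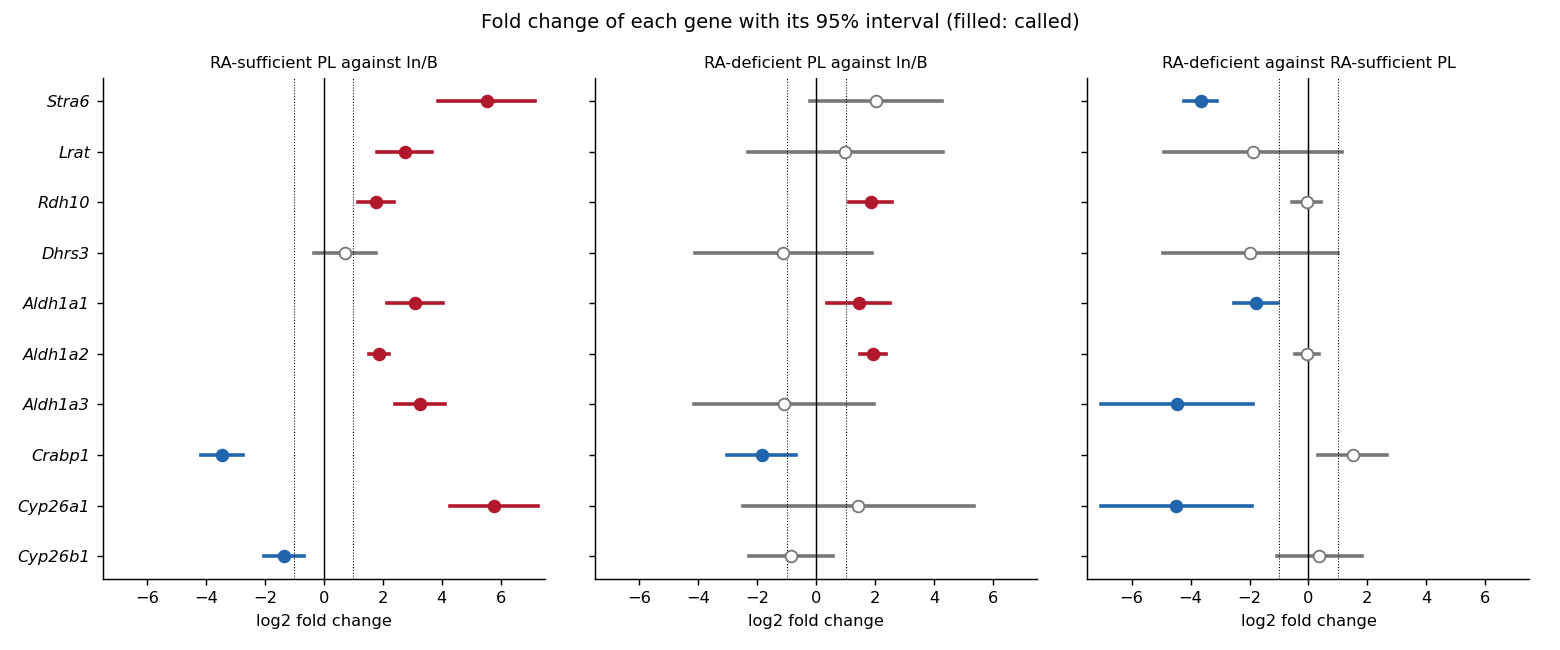
log2 fold change (points) and 95% interval (lines) of each gene in the 3 comparisons, from edgeR. Filled points are called, red for higher and blue for lower in the group named first, and dotted lines mark log2 changes of -1 and 1. Between the PL groups Rdh10 and Aldh1a2 have short intervals around 0, and those of Lrat, Dhrs3, Aldh1a3 and Cyp26a1 span several log2 units.

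Leaving out a library moved the number of genes called between the PL groups from 4 to 2 without RA-sufficient PL replicate 1, 2 or 3, and to 6 without RA-deficient PL replicate 3. The calls over all genes moved likewise, from 2383 to 1227, 1190 and 1283 without RA-sufficient PL replicates 1, 2 and 3 and to 4484 without RA-deficient PL replicate 3. Stra6 and Aldh1a1 were called as lower in all 6 of these fits. Taking each RA-deficient PL library by itself, 5, 7 and 4 of the 10 genes in replicates 1, 2 and 3 lay between the ranges of the other two groups. Replicate 3 lay above both ranges for Aldh1a2 and Rdh10, below both for Cyp26b1 and within the RA-sufficient PL range for Crabp1.

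The order of the 10 genes by level also changed. In In/B, Crabp1 was highest at 190.1 ± 75.3 CPM per kb (SD, n = 3), above Aldh1a2 at 21.2 ± 3.74 and Aldh1a1 at 7.64 ± 4.11 CPM per kb. Aldh1a1, Cyp26b1 and Rdh10 followed each other with overlapping ranges, and the other 5 genes were below 1 CPM per kb in every library. In RA-sufficient PL cells Aldh1a2 at 74.4 ± 7.31 and Aldh1a1 at 62.6 ± 17.8 CPM per kb overlapped at the top. They were followed by Crabp1 at 16.7 ± 3.74 and Stra6 at 16.6 ± 3.80, which overlapped, and by Rdh10 at 11.5 ± 0.603 and Cyp26a1 at 6.94 ± 1.24 CPM per kb, which did not. In RA-deficient PL cells Aldh1a2 at 72.2 ± 14.6, Crabp1 at 47.4 ± 27.0, Aldh1a1 at 18.4 ± 6.71 and Rdh10 at 11.1 ± 2.77 CPM per kb led, each overlapping with the next, and Stra6 was at 1.32 ± 0.00552 CPM per kb.

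Sertoli markers moved with several of these differences. All 18 were called as higher from In/B to RA-sufficient PL cells (median log2 4.01) and all 18 as lower in RA-deficient than in RA-sufficient PL cells (median log2 -3.06), while 2 of 18 were called, as higher, from In/B to RA-deficient PL cells (median log2 0.94). For each 1000 CPM of summed Sertoli markers, Aldh1a1 was at 26.6 to 34.2 CPM in In/B, 19.1 to 22.3 in RA-sufficient PL and 39.2 to 49.6 in RA-deficient PL libraries. On that scale RA-sufficient PL cells, with the highest level of Aldh1a1 in CPM, had the lowest. Stra6 was at 0.240 to 4.89, 14.3 to 16 and 7.21 to 11.5 CPM per 1000 CPM of the markers, and kept the order of the groups. Cyp26a1 was at 0 to 1.92, 1.76 to 2.35 and 0 to 1.10, and Aldh1a3 at 1.20 to 5.27, 1.37 to 1.85 and 0 to 0.936 on the same scale. For both genes the RA-sufficient PL range overlapped with In/B and lay above RA-deficient PL. Lrat was at 1.95 to 2.87, 0.807 to 1.78 and 0 to 4.76 on this scale, overlapping between the PL groups.

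Aldh1a2 and Rdh10 stood apart from that pattern. Their CPM in RA-deficient PL libraries overlapped with that in RA-sufficient PL libraries, while the Sertoli markers, at 669 to 1074 CPM, overlapped with In/B. On the scale of the Sertoli markers they were highest in RA-deficient PL libraries, at 187 to 225 CPM for Aldh1a2 and 55.1 to 60.3 CPM for Rdh10 per 1000 CPM of markers, against 24.4 to 28.8 and 6.28 to 9 in RA-sufficient PL libraries. General germ cell markers summed to 2258 to 2429 CPM in RA-sufficient and to 3755 to 4039 CPM in RA-deficient PL libraries. Per 1000 CPM of that sum the order turned, also without overlap. Aldh1a2 was then at 35.3 to 53.5 CPM in RA-deficient and 63.6 to 82.7 CPM in RA-sufficient PL libraries, and Rdh10 at 9.29 to 15.8 and 19 to 21.3 CPM, with In/B below both at 15 to 20.9 and 3.27 to 6.37 CPM. Meiotic prophase markers rose with both genes, with 12 of 14 called as higher in RA-sufficient and 13 of 14 in RA-deficient PL cells against In/B, and 0 of 14 called between the PL groups. Beside the fall of Crabp1 to RA-sufficient PL cells, 5 of 8 markers of differentiating spermatogonia were called as lower and 1 as higher. Beside its fall to RA-deficient PL cells, 1 of the 8 was called as lower and 1 as higher. The 8 include Uchl1, whose promoter drives the EGFP of the gates, so they are not independent of the sort. They also include Kit and Stra8, given below as RA targets. The sum of the 8 in RA-deficient PL replicate 3 was also the nearest of its group to the RA-sufficient PL range. The part of Sertoli RNA, of meiotic progress and of remaining spermatogonia in the differences of these genes was not tested.

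**Figure D4:**
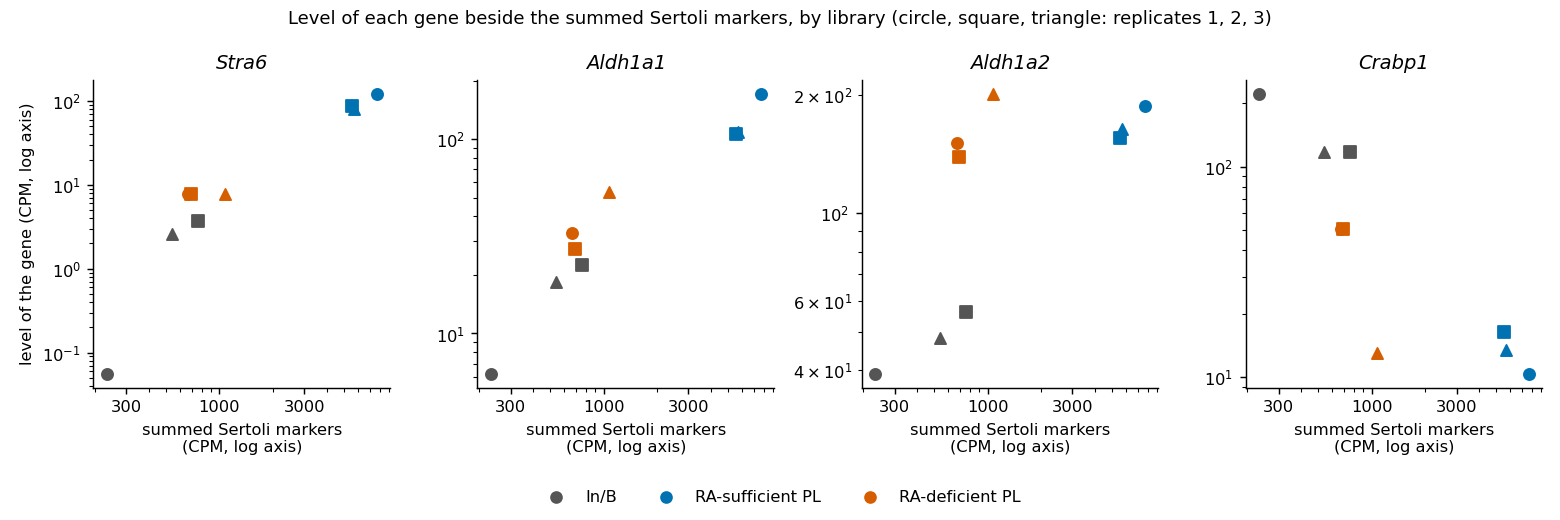
Level of Stra6, Aldh1a1, Aldh1a2 and Crabp1 (CPM, log axis) against the summed level of 18 Sertoli marker genes (CPM, log axis) in each of the 9 libraries, coloured by group. The RA-sufficient PL libraries lie at 5541 to 7660 CPM of the markers and the others at 233 to 1074 CPM, and the Aldh1a2 level of the RA-deficient PL libraries overlaps with that of the RA-sufficient PL libraries at a lower marker sum.

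Other somatic markers were lower. Leydig markers summed to 21.6 to 35.6, 131 to 138 and 30.1 to 48.8 CPM in In/B, RA-sufficient PL and RA-deficient PL libraries, with Insl3 at 0 in In/B and RA-deficient PL. Peritubular and stromal markers summed to 95.9 to 101, 210.3 to 245 and 156 to 171 CPM, and macrophage and blood markers to at most 19.7 CPM. Late spermatocyte and spermatid markers summed to 9.34 to 41.6, 228 to 704 and 0.960 to 124 CPM, with Prm2 and Tnp1 at 0 in RA-deficient PL libraries. General germ cell markers summed to 2619 to 2768, 2258 to 2429 and 3755 to 4039 CPM, without overlap between the PL groups. Of the 6 markers, 0 were called between the PL groups. From In/B to RA-deficient PL cells 2 were called, as higher, where 23.2% of all genes tested were called.

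Among 38 other genes of retinol uptake, storage, oxidation and binding, 23, 21 and 23 could be tested in the 3 comparisons. From In/B to RA-sufficient PL cells 9 rose and 1 fell, to RA-deficient PL cells 3 rose and 3 fell, and between the PL groups 6 were lower and 0 higher in RA-deficient cells. Called were thus 10 of 23, 6 of 21 and 6 of 23, beside 45.4%, 23.2% and 15.5% of all genes tested, so that the first and second of these counts were near the share of all genes. Their median log2 differences were 0.77, 0.15 and -0.42. Between the PL groups the count of 6 became 2, 1 and 3 without RA-sufficient PL replicates 1, 2 and 3, where calls over all genes fell as given above. The counts include genes that passed the filter on low counts through the RA-sufficient PL libraries alone. These were Cyp26c1 in both comparisons with that group, and Adh1 in the comparison of it with In/B. For them a call could only be toward a higher level in RA-sufficient PL cells.

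The genes lower in RA-deficient than in RA-sufficient PL cells included Dhrs7, Cyp26c1, Adh4, Aldh1a7 and Fabp5. Dhrs7, a short-chain dehydrogenase gene, was at 0.447 to 1.81 CPM in In/B, 28.8 to 40.8 CPM in RA-sufficient PL and 0.0396 to 0.831 CPM in RA-deficient PL libraries (log2 4.75 ± 0.44, adjusted p = 4.45e-05, and log2 -6.11 ± 0.80, adjusted p = 0.00313). Cyp26c1, the neighbour of Cyp26a1 and the third CYP26 gene (chr19:37760071-37767888, plus strand), was at 2.16 to 2.73 CPM in RA-sufficient PL libraries, at no more than 0.112 CPM in In/B and at 0 in all 3 RA-deficient PL libraries. The RA-sufficient PL group was thus highest for both Cyp26a1 and Cyp26c1, without overlap. Adh4, a retinol-oxidizing alcohol dehydrogenase gene, was at 6.66 to 12.6 CPM in RA-sufficient PL against 0.391 to 0.791 CPM in In/B and 0.437 to 1.60 CPM in RA-deficient PL libraries (log2 3.89 ± 0.43, adjusted p = 0.000104, and -2.93 ± 0.62, adjusted p = 0.0164).

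Aldh1a7, the near copy of Aldh1a1, moved like it between the PL groups (log2 -2.82 ± 0.67, adjusted p = 0.0243), from 4.55 to 7.73 CPM down to 0.277 to 1.28 CPM. Fabp5, for a fatty acid-binding protein that can also carry RA, was lower in RA-deficient PL cells than in both other groups, at 1.75 to 2.28 CPM against 5.37 to 6.80 CPM in In/B (log2 -1.43 ± 0.43, adjusted p = 0.0333) and 4.46 to 8.39 CPM in RA-sufficient PL (log2 -1.65 ± 0.46, adjusted p = 0.0404). Adh1, for the class I alcohol dehydrogenase, rose from at most 0.113 CPM in In/B to between 1.58 and 3.66 CPM in RA-sufficient PL cells (adjusted p = 0.000295).

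A second set differed from In/B in both PL groups. Lipe, for hormone-sensitive lipase, rose from between 9.10 and 12.4 CPM to between 18.6 and 32.7 CPM in RA-sufficient PL (log2 1.38 ± 0.26, adjusted p = 0.00172) and to between 25.6 and 57.2 CPM in RA-deficient PL cells (log2 1.92 ± 0.35, adjusted p = 0.00423). Rdh14, of the retinol dehydrogenase family, rose likewise (log2 1.98 ± 0.28, adjusted p = 0.00032, and 1.67 ± 0.36, adjusted p = 0.00809). Lpl, for lipoprotein lipase, fell from between 10.7 and 15.8 CPM to at most 1.58 CPM in every PL library (log2 -3.45 ± 0.36, adjusted p = 7.4e-05, and -4.00 ± 0.88, adjusted p = 0.00915). These pairs of comparisons share the In/B libraries. None of Lipe, Rdh14 and Lpl was called between the PL groups, with log2 differences of 0.43 ± 0.37, -0.42 ± 0.31 and -0.70 ± 1.13.

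Dgat1, for an acyltransferase that can also esterify retinol, rose to RA-deficient PL cells (log2 1.11 ± 0.14, adjusted p = 0.000734), and its log2 difference of 0.89 ± 0.12 to RA-sufficient PL cells was under the fold threshold (adjusted p = 0.000272). Rdh13 fell to RA-deficient PL cells (log2 -1.25 ± 0.34, adjusted p = 0.0226) and Rdh11 rose to RA-sufficient PL cells (log2 1.27 ± 0.31, adjusted p = 0.0061). In RA-deficient PL libraries Rdh11 was at 0.520 to 11.3 CPM, below all libraries of the other groups. Its log2 difference of -2.76 ± 0.93 between the PL groups was not called (adjusted p = 0.0702). The other well expressed genes (mean over the 9 libraries of 10 CPM or more), Adh5, Rbp4, Scarb1 and Pnpla2, were called in none of the 3 comparisons, with means between 35.1 and 177 CPM in the groups.

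**Figure D5:**
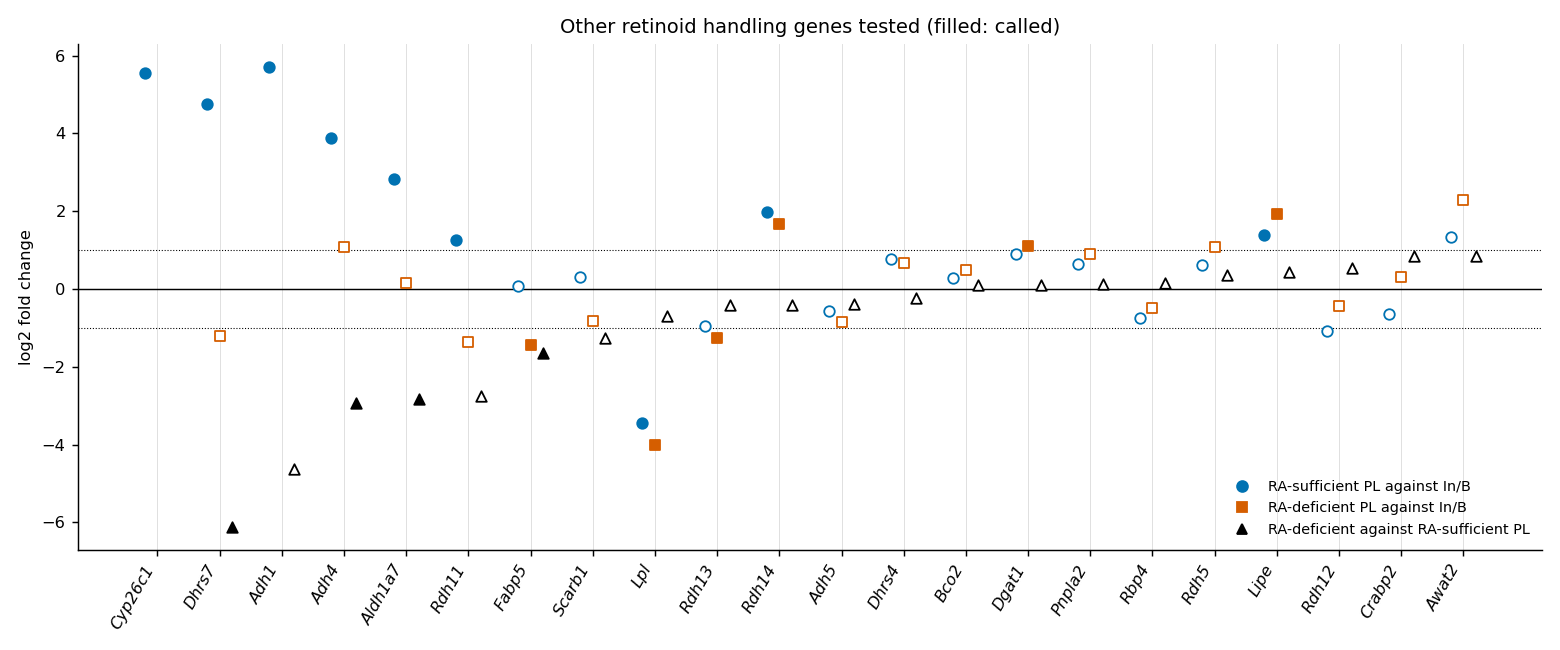
log2 fold change of the other retinoid handling genes that could be tested, in the order of their difference between the PL groups, with a symbol for each comparison and filled symbols for called genes. No value is drawn for Cyp26c1 between the PL groups, since it had no count in the RA-deficient PL libraries. The 4 filled black triangles, for genes called between the PL groups, all lie below 0, lower in RA-deficient cells.

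Of 6 RA receptor genes 4 could be tested, and 2 of them, Rarg and Rxra, were lower in RA-sufficient PL cells than in In/B (log2 -2.08 ± 0.16, adjusted p = 2.24e-05, and -2.61 ± 0.26, adjusted p = 5.79e-05). Both were higher in RA-deficient than in RA-sufficient PL cells (log2 1.74 ± 0.23, adjusted p = 0.00338, and 1.16 ± 0.29, adjusted p = 0.0279). From In/B to RA-deficient PL cells Rxra was also lower (log2 -1.35 ± 0.21, adjusted p = 0.00201), and Rarg was not called (log2 -0.22 ± 0.22, adjusted p = 0.477). Among 7 known RA targets outside the 10 genes, 2 of 5 tested were called from In/B to RA-sufficient PL cells, 0 of 4 to RA-deficient PL cells and 2 of 4 between the PL groups. The first and the last 2 were Kit and Tgm2, moving in opposite directions. Of all genes tested, 45.4%, 23.2% and 15.5% were called in these comparisons. The targets and receptors tested were too few to set their counts apart from those shares. Kit, the receptor gene of differentiating spermatogonia, was at 404, 327 and 331 CPM in In/B, at 41.0, 32.8 and 20.2 CPM in RA-sufficient PL and at 561, 521 and 20.3 CPM in RA-deficient PL libraries. Replicate 3 of the RA-deficient PL group thus lay within the RA-sufficient PL range for Kit, as it did for Crabp1. Stra8, the RA-induced gene of meiotic initiation, was at 54.4, 165 and 150 CPM in In/B, at 444, 126 and 121 CPM in RA-sufficient PL and at 377, 365 and 81.5 CPM in RA-deficient PL libraries, with overlap among the groups and no call. Rec8, a meiotic cohesin gene, was not called either, and Rarb was too low to be tested, with means of 0.420, 0.189 and 0.0278 CPM in the 3 groups.

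The genes most like each of the 10 over the 9 libraries were found by the root mean square difference of log2(CPM + 0.5), each gene centred on its own mean, among genes with a mean of 0.5 to 2 times that of the member. The nearest match was for Aldh1a2, to Mtmr6 (difference 0.138) and Pcbp3 (0.154), followed by Rdh10, to Clcn4 (0.16) and Siah1a (0.184). Mtmr6 had means of 92.0, 323 and 305 CPM in In/B, RA-sufficient PL and RA-deficient PL cells. Cbx2 was close to Crabp1 (0.33), and Cyp26b1 was nearest to Ace (0.292) and Syngr1 (0.316). Aldh1a1 was nearest to Gstm1 (0.261), a glutathione transferase gene with means of 31.1, 216 and 56.1 CPM in the 3 groups, and to Slc26a8 (0.315). Stra6 was nearest to P2rx2 (0.44) and Gpr179 (0.446), and Cyp26a1 to Asb4 (0.43) and St8sia1 (0.479), both at larger differences than the genes before. Aldh1a3 was nearest to Stoml1 (0.337) and Ddit4l (0.374), Lrat to 4930480K23Rik (0.32) and Socs2 (0.36), and Dhrs3 to Tm6sf1 (0.235) and Itga1 (0.242).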

How the data were processed

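The authors deposited read counts per gene, not normalized, made from stranded poly(A) libraries and single-end reads with cutadapt 1.9, STAR 2.5.2b (mm9) and featureCounts, whose annotation and strand setting are not given in the sources used here. Counts were tested for each pair of groups, 3 libraries each, with edgeR 4.0.16 (filterByExpr, TMM, quasi-likelihood test, Benjamini-Hochberg), calling an absolute log2 fold change above 1 with an adjusted p below 0.05. CPM used TMM factors over all 9 libraries. Positions and exon lengths are from GENCODE M1, and promoters from RefSeq. The study named DESeq2 with pairwise comparisons, and DESeq2 1.42.0 was run as an alternative, beside RLE scaling, library size alone, no filter, all 9 libraries in a single fit, a replicate block and leaving out each library. Scripts were tested on simulated data. The 10 genes and all lists were chosen with earlier results of these data known. Named beyond the 10 were other retinoid genes that were called (at most 6 per comparison, by p) or had a mean of at least 10 CPM, 4 RA targets and the 2 genes most like each member. Tgm2, Rarg and Rxra were named after their values were seen. No member shared exonic bases with another annotated gene. All columns of the table were used. Genes that belong to a count but are not reported here by themselves are left out of the text and figures.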

Additional observations from a re-analysis of the deposited data

How the results depend on the processing

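With 3 libraries in each group, the spread of the RA-deficient PL libraries (biological coefficient of variation 0.68, against 0.246 in In/B and 0.266 in RA-sufficient PL) limited what could be called for genes near 0 in them. The number of the 10 genes called between the PL groups ran from 2 to 6 over fits that left out a library, and that of the other retinoid genes from 1 to 8. DESeq2 called 11 of the latter in place of 6, from the same libraries, and the cause was not tested. From In/B to RA-sufficient PL cells, 59 of 60 gene values kept direction and call when a library was left out. Directions turned in values that were not called: Aldh1a2 between the PL groups ran from -0.21 to 0.07 and Rdh10 from -0.26 to 0.09 over fits without a library, Lrat from -0.88 to 1.54 against In/B, and Cyp26b1 from -0.26 to 0.85 between the PL groups. Scaling by library size alone moved the median log2 change of all genes to -0.31 between RA-deficient PL and In/B and to -0.27 between the PL groups. Calls of higher and lower genes then went from 1693 and 1753 to 1123 and 2762, and from 687 and 1696 to 426 and 2003. Without RA-deficient PL replicate 3, 4484 genes were called between the PL groups in place of 2383.

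Replicate numbers were not taken as pairs: same-numbered libraries correlated between -0.252 and 0.117 in their deviations from group means, and the labels name no shared batch. With 3 libraries in each group these correlations cannot exclude a pairing. Replicate 3 of RA-deficient PL and of In/B correlated at 0.11, against at most -0.0671 with other numbers. With the replicate block 9, 4 and 4 of the 10 genes and 10, 5 and 5 of the other retinoid genes were called in the 3 comparisons, and the log2 difference of Lrat between RA-deficient PL and In/B turned to -0.08.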
